A study of Mus musculus with 8 samples.

Results

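The respiratory chain genes described here are the mouse genes that encode subunits of complexes I to V of oxidative phosphorylation, in the nucleus and in mitochondrial DNA, with cytochrome c and the complex I assembly factors whose names begin with Ndufaf. Members were chosen by name, from symbols that begin with Nduf, Uqcr, Cox4 to Cox8 or Atp5, the 4 Sdh subunit genes, Cycs and the mitochondrial Nd, Co, Cytb and Atp genes, leaving out names that contain -ps. Of 111 gene identifiers that matched, 104 reached a level of at least 1 TPM in 2 or more of the 8 libraries. They stand among 12511 genes that reached the same level and 55487 genes in all. TPM is the share that a transcript takes of all transcripts in a library, after scaling by transcript length.

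The 104 members comprised 78 nuclear subunit genes, 13 mitochondrially encoded genes, 8 Ndufaf assembly factors, Cycs and 4 genes that are annotated as processed pseudogenes although their names lack -ps (Cox6c2, Ndufa11b, Ndufb4c and Ndufs6b). Of the nuclear subunit genes, 36 belong to complex I, 4 to complex II, 8 to complex III, 13 to complex IV and 17 to complex V. The mitochondrial genes supply 7 subunits to complex I, 1 to complex III, 3 to complex IV and 2 to complex V. Of the 7 identifiers below the level, Cox4i2, Cox7a1, Cox8b, Cox8c, Ndufa4l2 and a second identifier named Atp5o lay at or close to 0, and Cox6a2 reached 0.8 TPM in 1 library. The members with the lowest mean level were Ndufaf5, at 0 to 1.7 TPM, Ndufaf6, at 0 to 3.9 TPM with a median of 0, and Ndufaf4, at 0.3 to 1.4 TPM.

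RNA was sequenced from bone marrow of C57BL/6J mice in 4 groups of 2 libraries that the submitters describe as biological duplicates. Both cell populations were sorted as lineage-negative, CD34-negative, ckit-negative and CD200R3-positive cells. Pre-Baso stained strongly and basophils at an intermediate level with MAR1, an antibody to the alpha chain of the high-affinity IgE receptor. Control mice were wild type littermates, and the other mice had a floxed Nfil3 gene removed and are called deficient here. The labels do not name the Cre line that removed the gene, nor the animals' age or sex. P-values measure the spread between these 2 libraries per group.

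The respiratory chain passes electrons from NADH at complex I and from succinate at complex II through coenzyme Q to complex III, then through cytochrome c to complex IV, where oxygen is reduced. Complexes I, III and IV pump protons across the inner mitochondrial membrane, and complex V, the ATP synthase, uses the return flow to make ATP. Most subunits are encoded in the nucleus and imported, while a small core is transcribed from mitochondrial DNA, so that the complexes need products of both genomes. Basophils are granulocytes with surface IgE receptors that complete their development in the bone marrow.

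Between 271.7 and 398 megabases of sequence were assigned to annotated transcripts per library, of which 3.73 to 6.47 megabases fell on the members. Protein-coding genes took 18.7% to 22.4% of TPM, so that a TPM of 1 stands for a larger share of messenger RNA than the unit alone conveys. Across the members, log2(TPM + 1) of the 2 libraries of a group correlated with r between 0.987 and 0.991. Nfil3 stood at 6.61 and 7.65 TPM in control pre-Baso and 20.5 and 22.5 TPM in control basophils, against 0 and 0.624 TPM and 0.853 and 1.32 TPM in the deficient groups. Mcpt8, a basophil protease gene, stood at 969 to 7888 TPM in controls and 1.98 to 6.04 TPM in deficient libraries. For this difference, loss of Nfil3 and effects of the unnamed Cre line cannot be told apart. The sorted identity showed in all libraries: Fcer1a, the receptor that MAR1 detects, stood at 547 to 960 TPM in pre-Baso and 160 to 424 TPM in basophils, Cd200r3 at 223 to 383 TPM, and Kit at no more than 0.641 TPM. The summed level of 9 cell division genes was 319 to 424 TPM in pre-Baso, 43.6 and 43.0 TPM in control basophils and 80.2 and 140 TPM in deficient basophils. The summed level of 5 eosinophil genes reached 2419 TPM in control basophil library 1, mostly Prg2 at 2354 TPM, against 15.4 to 162 TPM in the other 7 libraries.

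Within the chain, nuclear subunit genes of complex IV and complex V were the most abundant per gene, and those of complex II the least. The median over genes of the mean TPM across 8 libraries was 134 for complex IV, 86.3 for complex V, 56.3 for complex III, 48.5 for complex I and 24.0 for complex II. The 2 most abundant nuclear genes of complex I were Ndufa3, at 447 to 629 TPM, and Ndufa6, at 240.4 to 490.0 TPM, both accessory subunits. In complex II they were Sdhb, the iron-sulphur subunit, at 52.9 to 77.0 TPM, and the membrane anchor Sdhd, at 23.7 to 34.2 TPM. In complex III they were the hinge protein gene Uqcrh, at 158 to 294 TPM, and Uqcr10, at 115 to 199 TPM. In complex IV they were Cox4i1, at 376 to 482 TPM, and Cox8a, at 258 to 354 TPM, and in complex V Atp5e, the epsilon subunit, at 261 to 476 TPM, and Atp5g3, at 213 to 404 TPM. Cycs, which encodes the soluble electron carrier cytochrome c, lay far below these, at 1.7 to 5.9 TPM.

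Where a subunit has tissue-specific forms, the widely expressed form carried nearly all of the signal. Cox4i1, Cox6a1, Cox7a2 and Cox8a were high in each library, while their muscle, lung or testis counterparts Cox4i2, Cox6a2, Cox7a1, Cox8b and Cox8c were listed at or near 0. Ndufa4 ranged from 114 to 334 TPM and its hypoxia-associated paralog Ndufa4l2 was listed near 0. Cox6b2, the testis form of subunit VIb, was the exception, at 2.7 to 15.2 TPM beside 190 to 271 TPM for Cox6b1. The c subunit of the ATP synthase is made from 3 genes that encode the same mature protein, and Atp5g3 supplied 76.2% to 80.9% of their summed TPM in each library, Atp5g2 14.7% to 21.9% and Atp5g1 1.34% to 7.22%. The Atp5g1 share was 3.29% to 4.53% when its level was computed with 1 fixed length per gene, for the reason given with its transcripts.

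The 13 mitochondrial genes kept nearly the same order of abundance in all 8 libraries. mt-Atp6, with a mean of 528 TPM, and mt-Co1, with a mean of 515 TPM, held the first 2 places in each library, and mt-Nd3, a complex I subunit at 25.8 to 36.1 TPM, held the last. mt-Co3 and mt-Atp8 held the next 2. The complex I genes spread from mt-Nd3 up to mt-Nd1, at 172 to 312 TPM, although all but mt-Nd6 are read from the same strand of 1 precursor RNA. mt-Nd6, the only member on the other strand, stood at 68.5 to 125 TPM and shares 14 bases with mt-Nd5, which runs in the opposite direction. The counting used no strand, so that reads in those bases cannot be assigned to either.

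mt-Atp8 and mt-Atp6, the 2 mitochondrial subunits of complex V, are carried on 1 messenger RNA and overlap in different reading frames. The stretch of 43 bases that belongs to both (chrM:7927-7969, plus strand, GRCm38) is shown because reads from it cannot be divided between these genes. Capitals mark the start codon of mt-Atp6 and the stop codon of mt-Atp8.
mt-Atp8 and mt-Atp6: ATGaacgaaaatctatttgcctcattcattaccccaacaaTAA
The overlap makes up 21.1% of the bases of mt-Atp8 and, with 1 base shared with mt-Co3, 6.46% of those of mt-Atp6. mt-Atp6 was listed 1.62 to 1.91 times as high as mt-Atp8 across the libraries, although both lie on the same RNA. mt-Nd4l and mt-Nd4 likewise overlap, by 7 bases.

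**Figure D1:**
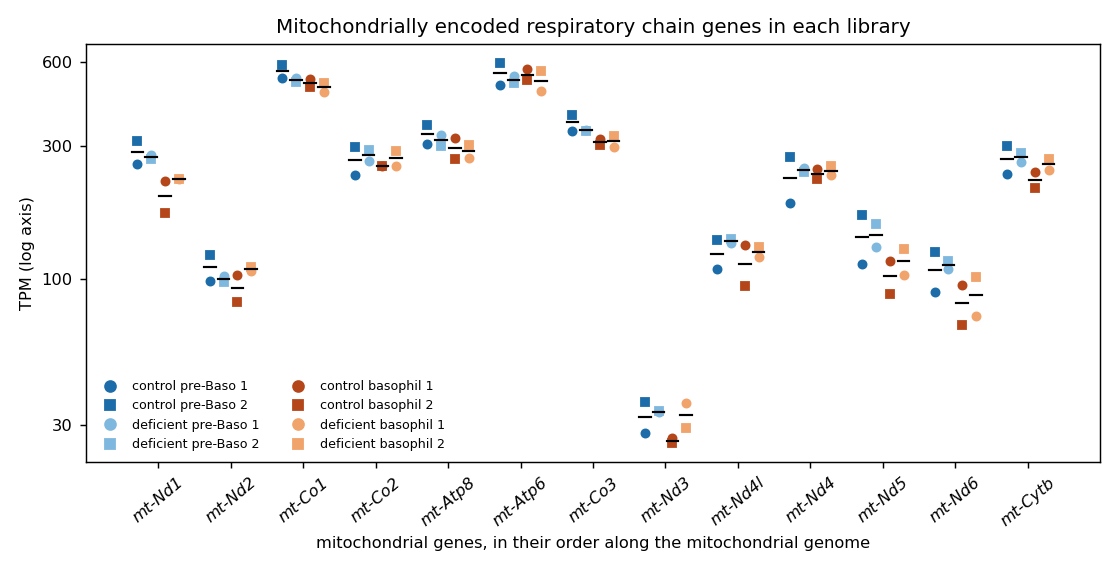
TPM (log axis) of the 13 mitochondrial genes in their order along the mitochondrial genome, with 1 point per library and a line at the mean of each group of 2. The order of abundance was nearly the same in all libraries, from mt-Nd3 at 25.8 to 36.1 TPM up to mt-Co1 and mt-Atp6, and mt-Nd1 was lower in both control basophil libraries than in both control pre-Baso libraries.

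Mitochondrial genes took 25.0% to 29.7% of all member TPM, with the higher shares in basophils. It was 28.2% in both control pre-Baso libraries, 25.0% and 26.9% in deficient pre-Baso, 29.0% and 28.9% in control basophils and 28.3% and 29.7% in deficient basophils. All 4 basophil libraries were therefore above all 4 pre-Baso libraries, with means of 29.0% ± 0.558 and 27.1% ± 1.48 (SD, n = 4 each). No test was made of this share. The summed TPM of the mitochondrial members overlapped between populations, at 3018 to 3690 in pre-Baso and 2796 to 3217 in basophils. The summed TPM of the nuclear subunits was 7543, 9201, 9645 and 8692 in pre-Baso and 7562, 6753, 7228 and 7473 in basophils, where 1 basophil library lay just above the lowest pre-Baso library.

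The division of nuclear subunit TPM among the complexes was close to constant. Complex I took 35.5% to 37.4% and complex II 1.35% to 1.57% in all libraries. Without the most abundant subunit of each complex, however, complex I took 36.1% to 37.4% in pre-Baso and 38.0% to 39.9% in basophils, with no overlap. Both complex I shares include Ndufa6, which alone took 3.19% to 3.44% of nuclear subunit TPM in pre-Baso and 5.15% to 7.26% in basophils. On average complex I took 36.5% in pre-Baso and 37.2% in basophils, and Ndufa6 alone 3.30% and 6.08%. Ndufa6 thus gained more than complex I as a whole. The other complex I genes together took a smaller mean share in basophils, which was not tested. Complex III took 7.79% to 9.49%. Complex IV took 26.5% to 27.2% in pre-Baso and 27.4% to 28.0% in basophils. Complex V took 27.0%, 27.0%, 26.5% and 25.9% in pre-Baso and 24.8%, 23.8%, 24.4% and 25.4% in basophils, so that the populations did not overlap. With the most abundant subunits left out the complex V share was 26.5% to 28.2% in pre-Baso and 25.6% to 26.8% in basophils, and the populations overlapped, as they did for complex IV.

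**Figure D2:**
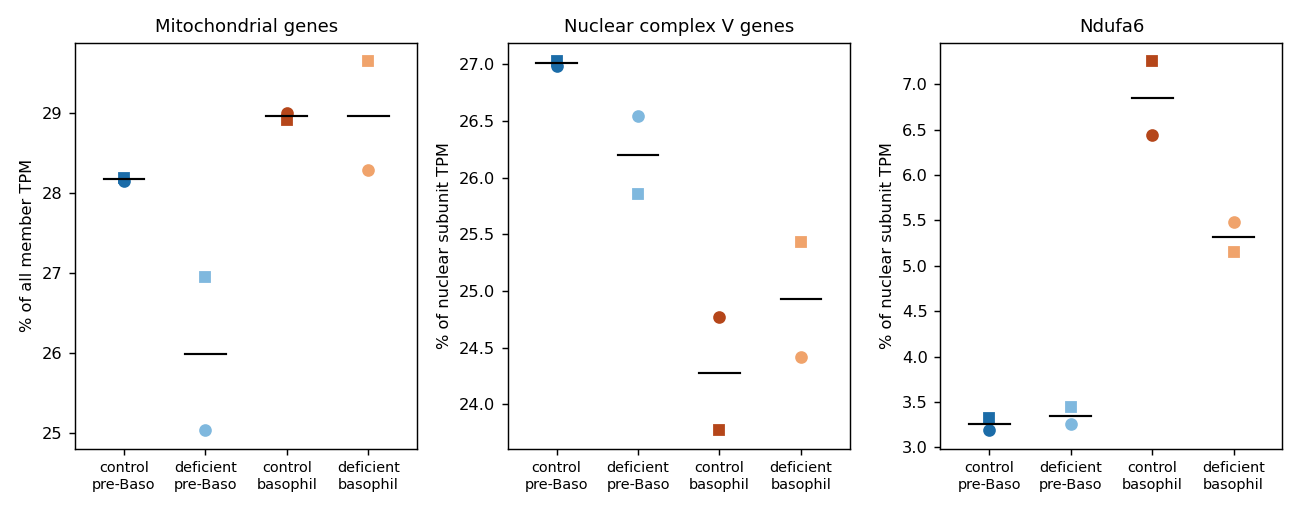
Share of member TPM from the 13 mitochondrial genes (left), share of nuclear subunit TPM from complex V (middle) and share of nuclear subunit TPM from Ndufa6 (right), in percent, with 1 point per library and a line at each group's mean. Basophils lay above pre-Baso in the left and right plots and below them in the middle plot. The vertical axes do not start at 0.

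The first comparison was of basophils with pre-Baso in control mice, that is, of 2 stages of the lineage as the study sorted them. Most nuclear respiratory chain genes were lower in basophils, while a small set that includes the accessory complex I gene Ndufa6 was higher. A gene is said to have risen or fallen where limma, fitted on log2(TPM + 1) over all 12511 genes, gave a Benjamini-Hochberg adjusted p under 0.05. By that rule 3 members rose and 20 fell, and 44 had an unadjusted p under 0.05, against 36.2% of all genes. Of all genes tested, 22.6% were called, 12.6% as higher and 10% as lower, so that the members were called about as often as other genes but mostly in 1 direction. The median log2 change was -0.38 over the 78 nuclear subunit genes, of which 64 lay below 0, -0.23 over the 13 mitochondrial genes, of which 12 lay below 0, and 0.08 over all genes tested, of which 56.5% lay above 0. In control basophils both libraries exceeded both pre-Baso libraries for 6 members and lay below them for 57, against 36.4% and 26.3% of all genes. In bulk samples, fewer cells of a type and less RNA per cell cannot be told apart.

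The cell division genes moved with this change: all 9 fell in control basophils. Their part in the change of the respiratory chain genes was not tested. Neutrophil genes, which are abundant in bone marrow, summed to 857 to 1234 TPM in pre-Baso and 1122 to 2077 TPM in basophils, and erythroid genes to 29.5 to 113 TPM and 128 to 162 TPM. Monocyte and macrophage genes summed to 10.2 to 24.3 TPM in pre-Baso and 27.8 to 84.4 TPM in basophils, T and NK cell genes to 129 to 186 TPM and 53.8 to 76.2 TPM, and the 9 basophil genes to 20807 to 35035 TPM and 5169 to 10951 TPM. Their part was not tested either.

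Among complex I subunits, Ndufa6, which lies on chromosome 15 (chr15:82350140-82354322, minus strand, GRCm38), stood apart by rising. It measured 240.4 and 306 TPM in control pre-Baso and 488 and 490.0 TPM in control basophils, and the groups did not overlap. The log2 change was 0.85 (SE 0.13, limma adjusted p = 0.00369), a rise of 1.80-fold, and it stayed called under all 21 alternatives. As a share of nuclear subunit TPM, which does not depend on how a library is scaled, Ndufa6 went from 3.19% and 3.32% to 6.45% and 7.26%.

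Most nuclear complex I genes encode accessory subunits, which surround the catalytic core, and so did most of the nuclear ones that fell. Of 29 nuclear accessory genes 10 fell and 1, Ndufa6, rose, with a median log2 change of -0.48. Of the 7 nuclear core genes only Ndufs8, which holds iron-sulphur clusters, fell, and the median was -0.32. The Ndufs8 call held in 12 of 21 alternatives and was lost when any 1 of 6 libraries was left out, the 4 control libraries among them. This grouping was made after the values were seen, and the difference between core and accessory genes was not tested. Ndufa1, a small membrane subunit encoded on the X chromosome (chrX:37187588-37191163), measured 235 and 301 TPM in control pre-Baso and 148 and 137 TPM in control basophils. It fell by 0.90 on the log2 scale (SE 0.15, limma adjusted p = 0.00448), and no alternative removed the call. Ndufa12 measured 23.2 and 21.5 TPM in pre-Baso and 11.9 and 8.0 TPM in basophils, for a fall of -1.12 on the log2 scale (SE 0.21, adjusted p = 0.00752). Without control pre-Baso library 1 its adjusted p was 0.0509. Ndufc1 measured 31.9 and 38.3 TPM against 21.6 and 15.1 TPM, and Ndufb6 55.2 and 64.3 TPM against 30.5 and 35.8 TPM. In each of these genes both basophil libraries lay below both pre-Baso libraries. Without control pre-Baso library 2 neither Ndufc1 nor Ndufb6 was called.

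The other nuclear complex I genes that fell were Ndufb2, Ndufc2, Ndufs5, Ndufa11, Ndufs6, Ndufs8 and Ndufb7, with log2 changes from -0.82 to -0.50. Of 21 alternatives, 19 kept the call of Ndufb2 and 11 that of Ndufb7, with the others between. Ndufa3, the most abundant, was 587 and 629 TPM in pre-Baso and 543 and 447 TPM in basophils, and its log2 change of -0.30 did not pass the test (adjusted p = 0.12). Of the exonic bases of Ndufb6, 39.0% also belong to Smim27 on the other strand, so that its reads are uncertain without strand.

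In complex II none of the 4 genes passed the test. Sdha, the flavoprotein, was 16.1 and 19.7 TPM in control pre-Baso and 21.1 and 21.0 TPM in control basophils, and Sdhc, a membrane anchor, 6.2 and 5.6 TPM against 5.0 and 3.9 TPM. Complex II has no mitochondrially encoded subunit and its Sdha, Sdhb, Sdhc and Sdhd proteins also serve the citric acid cycle.

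In complex III the hinge protein gene Uqcrh (chr4:116066965-116075071, minus strand) rose from 158 and 208 TPM in control pre-Baso to 292 and 294 TPM in control basophils. The log2 change was 0.69 (SE 0.15, limma adjusted p = 0.0121). Without control basophil library 1 or 2 the adjusted p was 0.0586 or 0.0554. The remaining complex III genes, Uqcrq aside, had log2 changes from -0.52 to 0.16 and none passed the test, among them the core proteins Uqcrc1 and Uqcrc2 and the Rieske protein gene Uqcrfs1.

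In complex IV, Cox7a2l rose and Ndufa4 and Cox5a fell. Cox7a2l measured 77.6 and 88.8 TPM in control pre-Baso and 150.2 and 132 TPM in control basophils (log2 change 0.76, SE 0.14, limma adjusted p = 0.00756). Without control basophil library 1, the library with the high Prg2 level, its log2 change was 0.67 and the call was lost. Ndufa4, which was first assigned to complex I and later to complex IV, measured 220.3 and 267 TPM in pre-Baso and 126 and 114 TPM in basophils. Its log2 change was -1.01 (SE 0.17, limma adjusted p = 0.00438), and no alternative removed the call. Cox5a fell from 194 and 228 TPM to 153 and 130 TPM, a call that was lost when any 1 of 6 libraries was left out. The most abundant subunits, Cox4i1 and Cox8a, had log2 changes of 0.21 and 0.12 that did not pass the test.

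In complex V, Atp5g1, Atp5o, Atp5k and Atp5g3 fell. Atp5o, the oligomycin sensitivity-conferring subunit that links the catalytic head to the stalk, measured 66.8 and 86.6 TPM in control pre-Baso and 42.6 and 42.8 TPM in control basophils (log2 change -0.82, SE 0.18, adjusted p = 0.0145). Annotated exons of other genes overlap 47.9% of its exonic bases. Atp5k, the e subunit, measured 123 and 170 TPM against 99.5 and 78.1 TPM, and Atp5g3 324 and 404 TPM against 251 and 213 TPM. Without control pre-Baso library 2 or control basophil library 2 none of these 4 was called. The catalytic subunits Atp5a1 and Atp5b had log2 changes of -0.29 and -0.39 that did not pass the test. Cycs fell from 4.4 and 5.9 TPM to 3.2 and 1.7 TPM (log2 change -0.85, SE 0.24, adjusted p = 0.0335). Leaving out any 1 of the 4 pre-Baso libraries, or control basophil library 2, ended that call.

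Of the 13 mitochondrial genes only mt-Nd1, a core complex I subunit, passed the test. It measured 258 and 312 TPM in control pre-Baso and 224 and 172 TPM in control basophils, and the change was -0.53 on the log2 scale (SE 0.16, limma adjusted p = 0.0431). The call held in 11 of 21 alternatives, and of the 8 fits that left out 1 library it held only in the one without control basophil library 1. The other 12 had log2 changes from -0.45 for mt-Nd5 to 0.07 for mt-Nd4. The mitochondrial median was -0.065 without control pre-Baso library 2 and -0.088 without control basophil library 2.

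Single libraries weighed heavily on the count of calls. Of the 23 called members, 7 stayed called without control pre-Baso library 2, 7 without control basophil library 2 and 12 without control basophil library 1. Of all genes, 14.3%, 14.9% and 12.7% were called in those 3 fits, against 22.6%. The median of the nuclear subunits stayed between -0.50 and -0.26 with any 1 library left out. With scaling by the median ratio of genes 50 members were called, 3 of them higher, and 26.2% of all genes.

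**Figure D3:**
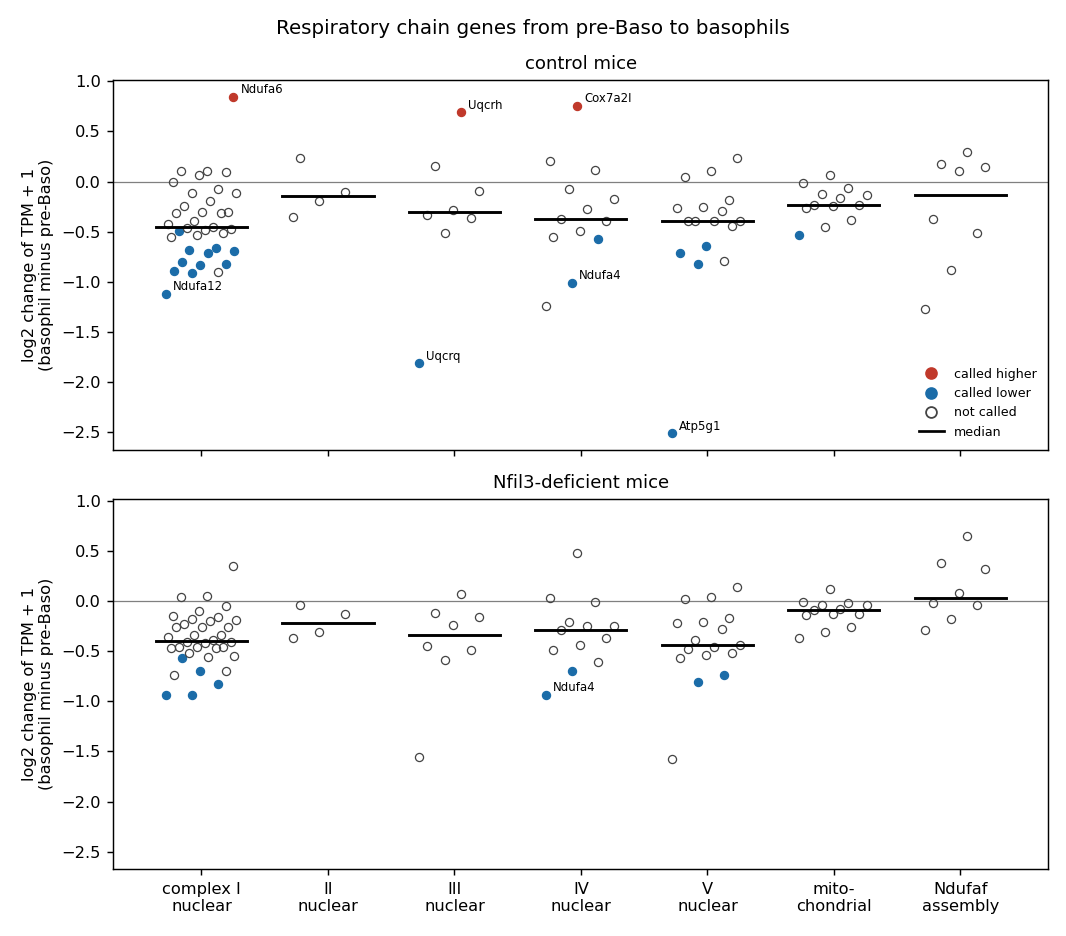
Log2 change of TPM + 1 from pre-Baso to basophils in control mice (top) and Nfil3-deficient mice (bottom), with 1 point per gene, a line at each set's median and filled points for genes with an adjusted p under 0.05. Most nuclear genes of each of complexes I to V lie below 0 in both plots, while Ndufa6, Uqcrh and Cox7a2l lie above 0.

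The largest falls, those of Atp5g1 and Uqcrq, rested on which transcript the reads were assigned to. The deposited gene level of Atp5g1 was 27.4 and 28.8 TPM in control pre-Baso and 4.5 and 3.8 TPM in control basophils (log2 change -2.51, SE 0.57, adjusted p = 0.0159). Without control pre-Baso library 1 or 2 or control basophil library 2 the adjusted p was 0.0838, 0.0809 or 0.051. A transcript of 596 bases held 23.5 and 25.7 TPM of it in control pre-Baso, 33.1 and 0.123 TPM in deficient pre-Baso and at most 0.570 TPM in any basophil library, while a transcript of 4715 bases held 2.37 to 5.33 TPM in all 8. Since a base of read on a short transcript counts for more TPM, the gene levels were also computed with 1 fixed length per gene, an alternative added after the data were seen. Atp5g1 then measured 18.2 and 17.8 TPM in control pre-Baso and 11.9 and 9.21 TPM in control basophils, a change of -0.73 on the log2 scale (limma adjusted p = 0.0174).

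Uqcrq, a small complex III subunit, showed the same dependence. Its deposited level was 112 and 46.1 TPM in control pre-Baso, 150.5 and 84.4 TPM in deficient pre-Baso, 22.2 and 17.6 TPM in control basophils and 59.9 and 23.5 TPM in deficient basophils. A transcript of 405 bases held 96.5 and 0 TPM in the control pre-Baso libraries and 45.4 TPM in 1 basophil library, and 0 TPM in the other 3 basophil libraries. With 1 fixed length it measured 78.8, 84.9, 104 and 81.9 TPM in pre-Baso and 41.8, 33.1, 49.8 and 43.9 TPM in basophils. The log2 change in controls was -1.81 (SE 0.51, adjusted p = 0.0365) as deposited and -1.12 (adjusted p = 0.00264) with 1 fixed length, and the 2 control pre-Baso libraries, far apart as deposited, then lay close together. Without control pre-Baso library 1, control basophil library 1 or control basophil library 2 the adjusted p of the deposited values was 0.221, 0.0731 or 0.111. In total, 8 of 21 alternatives ended the call, among them FPKM, both scalings to protein-coding genes and robust moderation. With fixed lengths 28 members were called in controls, among them all 23 called on the deposited values, and 26.1% of all genes were called.

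**Figure D4:**
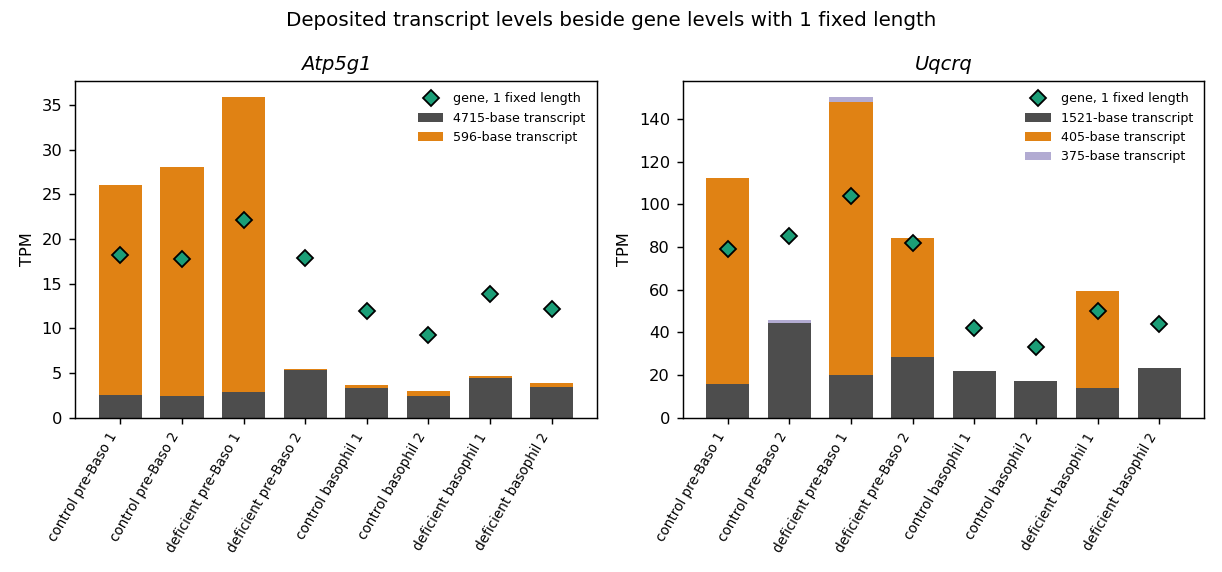
TPM of the transcripts of Atp5g1 (left) and Uqcrq (right) that reached 1 TPM in any library, stacked as bars for each of the 8 libraries, with diamonds for the gene's TPM computed with 1 fixed length. The bars drop where the short transcript (orange) is absent, while the diamonds lie between 9.21 and 22.1 TPM for Atp5g1 and between 33.1 and 104 TPM for Uqcrq, with basophils below pre-Baso in both.

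Several members share reads with near-identical processed copies, so that their own levels are uncertain. Ndufb4c, at 12.9 to 22.0 TPM, matched the aligned part of the Ndufb4 transcript at 100% of 390 bases and took 51.5% to 67.4% of the pair's TPM. Cox6c2 matched Cox6c at 97% and took 26.3% to 30.3%. Among genes that fell in controls, the copy Ndufa12-ps took 44.3% to 55.2% of the TPM of its pair with Ndufa12. Ndufs5-ps took 32.8% to 45.0% of that of its pair with Ndufs5. Identity was not computed for either copy. The copies of Uqcrh, identical to it at 93.3% and 94.8%, took at most 10.7% and 5.06%. When the copies were added to their parent genes, an alternative added after the data were seen, 23 members were called in controls, the same 23 as before. In deficient mice 9 were called, 8 of them as before, and the Atp5k call was lost (adjusted p = 0.0501). Of all genes, 22.6% were called in controls and 10.9% in deficient mice with the copies added.

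**Figure D5:**
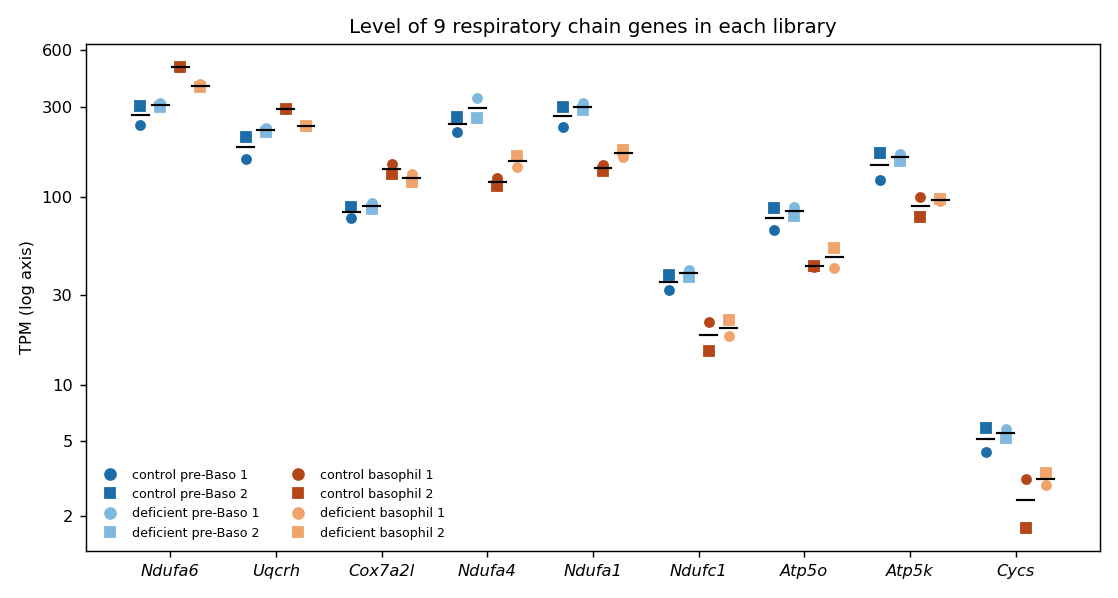
TPM (log axis) of 9 respiratory chain genes in each library, with 1 point per library and a line at the mean of each group of 2. Ndufa6, Uqcrh and Cox7a2l are higher in both basophil groups than in pre-Baso of the same genotype, and the other 6 genes are lower.

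The same comparison in deficient mice used 4 other libraries. There 0 members rose and 9 fell, where 10.9% of all genes were called, 6.79% as higher and 4.11% as lower. By unadjusted p, 36 members were under 0.05, against 28.1% of all genes. Both basophil libraries exceeded both pre-Baso libraries for 7 members and lay below them for 69, against 36.6% and 21.7% of all genes. The median log2 change was -0.37 over nuclear subunits, of which 69 of 78 lay below 0, -0.09 over mitochondrial genes and 0.10 over all genes, of which 59.6% lay above 0. The cell division genes moved with this change too: 8 of 9 fell, with a median of -1.59, and their part was not tested. Rescaling to nuclear protein-coding genes moved the split to 3 higher and 26 lower, and to 3 and 21 without ribosomal protein genes, with 15.3% and 16.1% of all genes called. The 3 that were higher with both of these scalings were Ndufa6, Cox7a2l and the assembly factor Ndufaf3.

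Those that fell were the complex I genes Ndufa5, Ndufc1, Ndufa1, Ndufb2 and Ndufb7, the complex IV genes Ndufa4 and Cox7a2, and the complex V genes Atp5o and Atp5k. Ndufa4 measured 334 and 263 TPM in deficient pre-Baso and 144 and 165 TPM in deficient basophils (log2 change -0.94, SE 0.17, limma adjusted p = 0.0139). Ndufa1 measured 314 and 291 TPM against 163 and 177 TPM (log2 change -0.82, SE 0.15, adjusted p = 0.0145). Ndufa5 measured 49.7 and 39.9 TPM against 21.2 and 24.4 TPM (log2 change -0.94, SE 0.23, adjusted p = 0.035). Each group pair was without overlap. These calls were fragile: without deficient pre-Baso library 1 or deficient basophil library 1 the count was 0, without deficient pre-Baso library 2 it was 2 without deficient basophil library 2 it was 4. Over all genes the share called fell as well, to 0.152%, 1.82%, 4.73% and 5.26%.

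Of the 9 genes, 7 had also fallen in controls, where they were 7 of the 20 that fell, and all 20 that fell in controls lay below 0 in deficient mice. Ndufa6 measured 314 and 299 TPM in deficient pre-Baso and 397 and 385 TPM in deficient basophils, or 0.35 on the log2 scale, which did not pass the test (adjusted p = 0.133). Cox7a2l had a log2 change of 0.48 (adjusted p = 0.0653) and Uqcrh of 0.07 (adjusted p = 0.795). Over both genotypes, 39 of the 104 members (37.5%) were lower in all 4 basophil libraries than in all 4 pre-Baso libraries, and 3 (2.88%), Ndufa6, Uqcrh and Cox7a2l, were higher. Among all genes tested the shares were 13.1% lower and 21.3% higher.

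The second question was whether these genes differed between deficient and control mice within a population. Controls were wild type littermates and the Cre line is unnamed, so loss of Nfil3 cannot be told apart from effects of the Cre line. In pre-Baso 0 of 104 members were called by limma, where 0.0639% of all genes were, 0.032% in each direction. 1 member had an unadjusted p under 0.05, against 4.38% of all genes. That gene was Uqcr11, the smallest complex III subunit, at 98.8 and 121 TPM in controls and 156 and 145 TPM in deficient mice, with a log2 difference of 0.45 (95% interval 0.07 to 0.84, adjusted p = 1). Values of the nuclear subunits leaned higher in deficient pre-Baso, with 62 of 78 above 0 and a median of 0.14, against 43.2% of all genes above 0 and a median of -0.04. By complex the median was 0.16 for complex I, 0.01 for complex II, 0.23 for complex III, 0.14 for complex IV and 0.05 for complex V. The mitochondrial genes had 7 of 13 above 0 and a median of 0.03. These medians moved with single libraries, as did that of all genes. Without control pre-Baso library 1 the nuclear median was -0.035, the mitochondrial median -0.18 and that of all genes -0.14, and without control pre-Baso library 2 they were 0.29, 0.20 and 0.063. The nuclear median lay above that of all genes in both. Among members the 2 groups did not overlap for 14 genes that were higher and 7 that were lower, against 11.2% and 19.3% of all genes.

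In basophils 0 members were likewise called by limma, where 0.056% of all genes were, 0.032% as higher and 0.024% as lower. 3 members had an unadjusted p under 0.05, against 8.51% of all genes. Ndufaf4, a complex I assembly factor, was 0.4 and 0.3 TPM in controls and 1.1 and 1.3 TPM in deficient mice, low in all 4 (log2 difference 0.75, adjusted p = 0.383). Ndufa6 was 488 and 490.0 TPM in controls and 397 and 385 TPM in deficient mice, with a log2 difference of -0.32 (95% interval -0.63 to -0.02, adjusted p = 0.561). Ndufs5 was 41.4 and 31.7 TPM against 45.4 and 54.1 TPM (log2 difference 0.44, adjusted p = 0.561). With the copy Ndufs5-ps added to it, the log2 difference was 0.30 (limma adjusted p = 0.649). The median was 0.10 for nuclear subunits, 0.10 for mitochondrial genes and -0.01 for all genes, of which 47.9% lay above 0.

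By complex, all 7 mitochondrial complex I genes and 28 of 36 nuclear complex I genes lay above 0 in deficient mice, while all 4 complex II genes and both mitochondrial complex V genes lay below 0. No difference between complexes was tested. For 16 of the 36 nuclear complex I genes and 3 of the 7 mitochondrial ones both deficient libraries exceeded both control libraries, against 17.2% of all genes. Over all members this held for 33, and 7 were lower in both deficient libraries, against 21.4% of all genes. The cell division genes leaned the same way in deficient basophils, where all 9 lay above 0, and their part in these values was not tested. Without control basophil library 1, the library with the high Prg2 level, the mitochondrial median was 0.27, the nuclear median 0.20 and that of all genes 0.03. Without control basophil library 2 they were -0.018, 0.0014 and -0.063.

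Whether the genotype effect was unlike in pre-Baso and basophils was tested as an interaction. 0 of 104 members were called by limma, as was 0% of all genes, and 2 members had an unadjusted p under 0.05, against 5.51% of all genes. Over all genes 53.3% lay above 0. These were Uqcrh, at -0.62 (95% interval -1.09 to -0.15, adjusted p = 0.897), and Ndufa6, at -0.50 (95% interval -0.93 to -0.07, adjusted p = 0.897), which are 2 of the 3 genes that rose in control basophils. Uqcrh was 158 and 208 TPM in control and 232 and 221 TPM in deficient pre-Baso, and 292 and 294 TPM in control and 239 and 237 TPM in deficient basophils. The deficient libraries thus lay above both controls in pre-Baso and below both in basophils, although the interaction did not pass the test over all genes. The interaction shares its libraries with the comparisons above.

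Other genes of mitochondrial function were read from the same fit. Of 78 mitochondrial ribosomal protein genes, which serve translation of the mitochondrial members, 15 fell and 1 rose in control basophils, with a median log2 change of -0.42. Of all genes, 10% fell and 12.6% rose there. In deficient mice 4 of the 78 fell, with a median of -0.28, against 4.11% of all genes. Mrps12 had a log2 change of -1.35 (adjusted p = 0.00264) and Mrpl21 of -1.09, while Mrps35 had 0.87. The 2 mitochondrial ribosomal RNAs summed to 11225 to 13063 TPM and neither was called. Of 18 genes for transcription and upkeep of mitochondrial DNA, 4 fell and 1 rose in control basophils, with a median of -0.16. They were Ssbp1, which coats single-stranded mitochondrial DNA, at -1.58, Slirp at -1.44, Tfb1m at -1.03, Mgme1 at -0.68 and the thymidine kinase gene Tk2 at 0.70. In deficient mice 1 of the 18 fell and 1 rose, with a median of -0.02, against 4.11% and 6.79% of all genes.

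Of 37 assembly factors outside the name rule, 5 fell and 4 rose in control basophils, shares close to the 10% and 12.6% of all genes, and 1 fell in deficient mice. The complex III factor Uqcc2 fell by 1.32 on the log2 scale and the complex IV factor Surf1 rose by 1.19. None of the 8 Ndufaf genes passed the test in the fit used throughout, though some did in alternatives. Ndufaf3 was called higher in deficient mice with both scalings to protein-coding genes. It was also called there with a TPM of at least 5 in 4 libraries. In controls Ndufaf2 was called with 7 of 21 alternatives. Ndufaf5 was called in controls with a replicate block and with the compared groups only, among others. Of 11 genes of coenzyme Q synthesis, 4 fell, among them Coq7 at -1.30 and Coq6 at -0.93, and 2 rose, Coq8a at 0.82 and Coq8b at 0.77, with a median of -0.45. In deficient mice 0 of the 11 fell and 1, Coq8b, rose, with a median of 0.17, and the difference between genotypes was not called for any of them by the interaction. Of 13 genes for carriers and oxidant defence, the ADP and ATP carrier gene Slc25a4 fell in control basophils, at -0.97. Gpx4, which reduces lipid peroxides, rose, at 0.63, and 0 of the 13 were called in deficient mice. Beside the counts of these lists, 10% of all genes fell and 12.6% rose in controls. In deficient mice 4.11% of all genes fell and 6.79% rose. Of 8 nuclear regulators of respiratory genes Myc rose, at 0.84 in controls and 1.07 in deficient mice, and the other 7 were not called. By genotype 0 genes of these lists were called in either population.

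RefSeq windows of 250 bases before the start (GRCm38) were found for 66 of the 78 nuclear subunit genes and searched on both strands for 4 motifs, none of which contains another. The motif of the nuclear respiratory factor NRF1, searched as GCGCA and GCGC on either side of any 1 base, was present for 19.7% of the 66 genes. Of all 27025 genes with a window, 4.23% held it. The ETS core CCGGAAG, bound by GABP among others, was present for 18.2% and 7.83%, and the YY1 motif AAGATGGCG for 1.52% and 0.71%. TTANGTAA, a loose search form for NFIL3 sites in which N is any base, was present for 3.03%, that is, for Atp5o and Cox7b. It was present for 2.44% of all genes. Of the nuclear subunit genes that fell in controls, 17 had a window, of which 4 held the NRF1 motif and 2 the ETS core. These matches are descriptions of letters and not of binding.

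Shown are an NRF1 match and an ETS match of 2 genes that fell, and both matches to the loose NFIL3 search form. Each is given 5′ to 3′ on the gene's strand with the match, on either strand, in capitals. The Ndufs5 window is chr4:123718255-123718304, the Ndufb6 window chr4:40279627-40279671 and the Atp5o window chr16:91931850-91931880, all on the minus strand, and the Cox7b window is chrX:106015488-106015535 on the plus strand.
Ndufs5: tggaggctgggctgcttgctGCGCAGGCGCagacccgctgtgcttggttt
Ndufb6: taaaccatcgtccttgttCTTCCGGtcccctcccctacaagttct
Atp5o: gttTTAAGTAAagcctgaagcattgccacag
Cox7b: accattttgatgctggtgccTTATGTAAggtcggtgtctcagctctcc
Neither of the genes with a match to the NFIL3 search form was called by genotype. Atp5o was 66.8 and 86.6 TPM in control and 88.6 and 79.4 TPM in deficient pre-Baso, and 42.6 and 42.8 TPM against 41.8 and 53.5 TPM in basophils. Cox7b, a complex IV subunit gene, was 41.5 and 46.2 TPM against 54.9 and 43.1 TPM in pre-Baso and 34.9 and 31.6 TPM against 34.6 and 48.3 TPM in basophils. In each of these pairs the ranges overlapped.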

How the data were processed

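Total RNA went into SMARTER mRNA-Seq libraries, per the labels' protocols. The aligner was HISAT2 and the build mm10, per the submitters' processing notes. Transcripts were quantified by the authors with StringTie 2.1.4 against Ensembl release 101 (GRCm38), annotated transcripts only and with no strand option, per the file headers. The deposited tables give TPM, FPKM and coverage per transcript, with no read counts, so that no counting interval can be given. Per the labels, samples fell into 4 groups of 2.

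TPM was summed per gene. The 12511 genes that reached 1 TPM in 2 or more libraries were fitted on log2(TPM + 1), which understates changes of low genes, with limma 3.58.1 in R 4.3.3 (1 mean per group, trend, 4 residual degrees of freedom, Benjamini-Hochberg over all genes per contrast). Fold changes and intervals are on this scale, and adjusted p-values are from limma. The fit was tested on simulated data. Members, lists and tests were chosen with earlier results of these data known. Named genes were the mitochondrial members, the 8 largest called rises and falls per comparison (or the 8 smallest p), the 2 most abundant subunits per complex, tissue isoforms and up to 4 genes per list; others were chosen after their values were seen. Copies were aligned with Biopython and GENCODE transcripts. Alternatives were 2 pseudocounts, 2 filters, FPKM, 3 scalings, robust moderation, the compared groups alone, a replicate block, each library left out, and, added later, 1 fixed length per gene and copies added to parents.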

Additional observations from a re-analysis of the deposited data

How the results depend on the processing

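Members called from pre-Baso to basophils numbered 23 in controls and 9 in deficient mice, and without a filter 7 and 0, with FPKM 36 and 23, with scaling to nuclear protein-coding genes 36 and 29, by median ratio 50 and 35, and with the compared groups only 13 and 5. In deficient mice the count was also 22 with a TPM of at least 5 in 4 libraries and 24 with scaling to protein-coding genes without ribosomal protein genes. Of all genes, 24.3% and 16.1% were called in these fits. Leaving out 1 library gave 7 to 22 in controls and 0 to 11 in deficient mice. Shares of all genes called moved too, to 4.72% and 0.929% without a filter, 22.2% and 12% with FPKM, and 26.2% and 15.3% by median ratio. They were 26.6% and 15.3% with scaling to nuclear protein-coding genes, and 16.7% and 4.49% with the compared groups only. The cause of these shifts was not tested. By genotype and interaction the count stayed at 0 in all alternatives run. The interaction was not run on compared groups only, since it needs all 4.

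With 1 library left out the mitochondrial median ran from -0.33 to -0.065 in controls, -0.18 to 0.20 by genotype in pre-Baso, -0.018 to 0.27 by genotype in basophils and -0.078 to 0.23 for the interaction. The nuclear median ran from -0.035 to 0.29 by genotype in pre-Baso, 0.0014 to 0.20 by genotype in basophils and -0.16 to 0.11 for the interaction. The maturation medians of nuclear subunits stayed below 0 in all alternatives. Without mt-Atp8, mt-Nd4l and mt-Nd6 the mean mitochondrial share was 23.6% in pre-Baso and 25.4% in basophils. Without the most abundant subunit of each complex the mean shares in pre-Baso were 36.7% for complex I, 0.776% for II, 7.85% for III, 27.4% for IV and 27.3% for V, and in basophils 38.5% for I, 0.904% for II, 6.83% for III and 26.2% for V.

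Same-numbered libraries deviated together with correlations of -0.05 to 0.20, so that the numbers were not taken to pair them. With a replicate block 20 members were called in controls, 19 of them among the 23, and 7 in deficient mice. Of all genes, 22.2% and 10.3% were called with that block. At 2 libraries per group, small differences by genotype could not be resolved.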
